A study of Mus musculus with 50 samples.

Results

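Genes listed as motor column and pool factors were followed through motor neuron maturation in the mouse spinal cord and in culture. These are 9 transcription factors and 1 enzyme of the 55385 genes listed in each RNA library. They were chosen by symbol, as *Foxp1*, *Foxp2*, *Aldh1a2*, *Pou3f1*, *Etv1*, *Etv4*, *Runx1*, *Mecom*, *Zeb2* and *Bcl11a*. No rule on their values was used, but earlier results of these data were known. RNA-seq covered 28 libraries and ATAC-seq, which maps accessible chromatin, 22 libraries. At E10.5, whole GFP-positive cells were sorted from C57BL/6 HB9-GFP embryos (3 RNA and 2 ATAC libraries), in which the Hb9 promoter drives GFP. From E13.5 to 2 years, nuclei came from C57BL/6 mice carrying Chat-Cre and an allele labelled SUN1-GFP-3xMYC, which the study's methods give as SUN1-2xsfGFP-6xMYC, in which cholinergic cells acquire a tagged nuclear envelope, with 2 RNA libraries at E13.5, P13 and 2 years, 3 at P4, P21 and P56, and 2 ATAC libraries at each age. Cultured motor neurons were made from 1 embryonic stem cell line labelled with the same 2 alleles. At DIV0 they came from embryoid bodies, and from then on they grew on cortical astrocytes of P2 mice, so time in culture and the move onto astrocytes cannot be told apart in steps from DIV0. Their nuclei were taken on days in vitro 0, 7 and 28 (DIV0, DIV7 and DIV28, with 2, 2 and 3 RNA libraries) or at DIV28 after growth in 1 µM tetrodotoxin (TTX, 3 RNA libraries), a blocker of voltage-gated sodium channels, with 2 ATAC libraries per condition. The tissue libraries pool animals of both sexes and mix all motor columns of the dissected segments. The RNA at E10.5 includes thoracic cord and the RNA of later ages does not, so age, isolation and segment cannot be told apart between E10.5 and E13.5. From E13.5 on and in culture, nuclei for RNA were taken with beads and those for ATAC by GFP sorting. The ATAC tissue includes thoracic cord at every age. Chat-Cre is known to mark every cholinergic cell type and some other neurons.

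Motor neurons settle in columns according to their targets and, within the columns of the limb levels, in pools that each supply 1 muscle. Hox proteins set the segmental level, and FOXP1 acts with them to form the lateral motor column, which innervates the limbs and makes retinoic acid with the enzyme encoded by *Aldh1a2*. Pool identity is completed later, partly by signals from the limb: GDNF induces *Etv4* in some pools and *Etv1* is found in others, while *Pou3f1* marks forelimb and phrenic pools. *Mecom* has been associated with the medial column that supplies the axial muscles, and *Runx1* with subsets of cervical motor neurons. FOXP2, ZEB2 and BCL11A are repressors used by several neuron types, FOXP2 among them in inhibitory interneurons of the ventral cord. The study lists *Bcl11a* among effector genes of cholinergic interneurons. It places *Zeb2* and *Foxp2* with visceral motor neuron or interneuron genes that some skeletal motor neurons also express.

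Total counts ranged from 2704682 to 21823500 per RNA library, both in culture (DIV7 replicate 1 and DIV28 replicate 2). The library titled DIV0 replicate 3 was counted as DIV28 replicate 3, as its table is named. Markers of cholinergic motor neurons were present in every group, with the sum of *Chat*, *Slc5a7*, *Slc18a3*, *Isl1* and *Mnx1* between 767 and 5764 normalized counts (expected counts divided by a library size factor). Endothelial markers stood at 14426 and 27092 normalized counts at E13.5 and 4925 to 6630 at P4, against 8.40 to 36.0 at E10.5, where *Cdh5* was 0. Erythroid markers stood at 15668 and 17517 at E13.5. Fibroblast markers varied from 15.3 to 1522 within the DIV28 and TTX groups. Libraries are bulk mixtures, so fewer cells of a type and less RNA per cell cannot be told apart in any value below.

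The 10 genes had 3 kinds of course. *Aldh1a2*, *Mecom*, *Foxp2*, *Zeb2*, *Etv4* and *Foxp1* fell in tissue between E13.5 and P21. *Runx1*, *Etv1* and *Bcl11a* stayed at measurable levels from E13.5 to 2 years, and *Pou3f1* was near the counting floor from P4 on. In culture *Aldh1a2*, *Mecom* and *Bcl11a* fell between DIV0 and DIV28, while *Foxp1* was as high at DIV28 as at DIV0 in normalized counts. Per length, as mean TPM (a unit scaled for transcript length and depth) deposited in the tables, *Zeb2* (80.0) and *Foxp1* (72.7) ranked first among the 10 genes at E10.5 and *Aldh1a2* (44.5) followed. At P21 *Foxp1* (11.1 TPM, libraries 9.47 to 12.02) and *Zeb2* (9.49 TPM, 7.39 to 12.97) ranked first with overlapping libraries, when *Aldh1a2* stood at 0.357 and *Pou3f1* at 0.0900 TPM. At DIV28 *Foxp1* led with 7.99 TPM, *Runx1* was second with 2.92 TPM, and *Bcl11a* (0.0400) and *Aldh1a2* (0.0233) were last. By TPM, unlike normalized counts, *Foxp1* was lower at DIV28 (libraries 7.06 to 9.44) than at DIV0 (13.73 to 14.24).

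**Figure D1:**
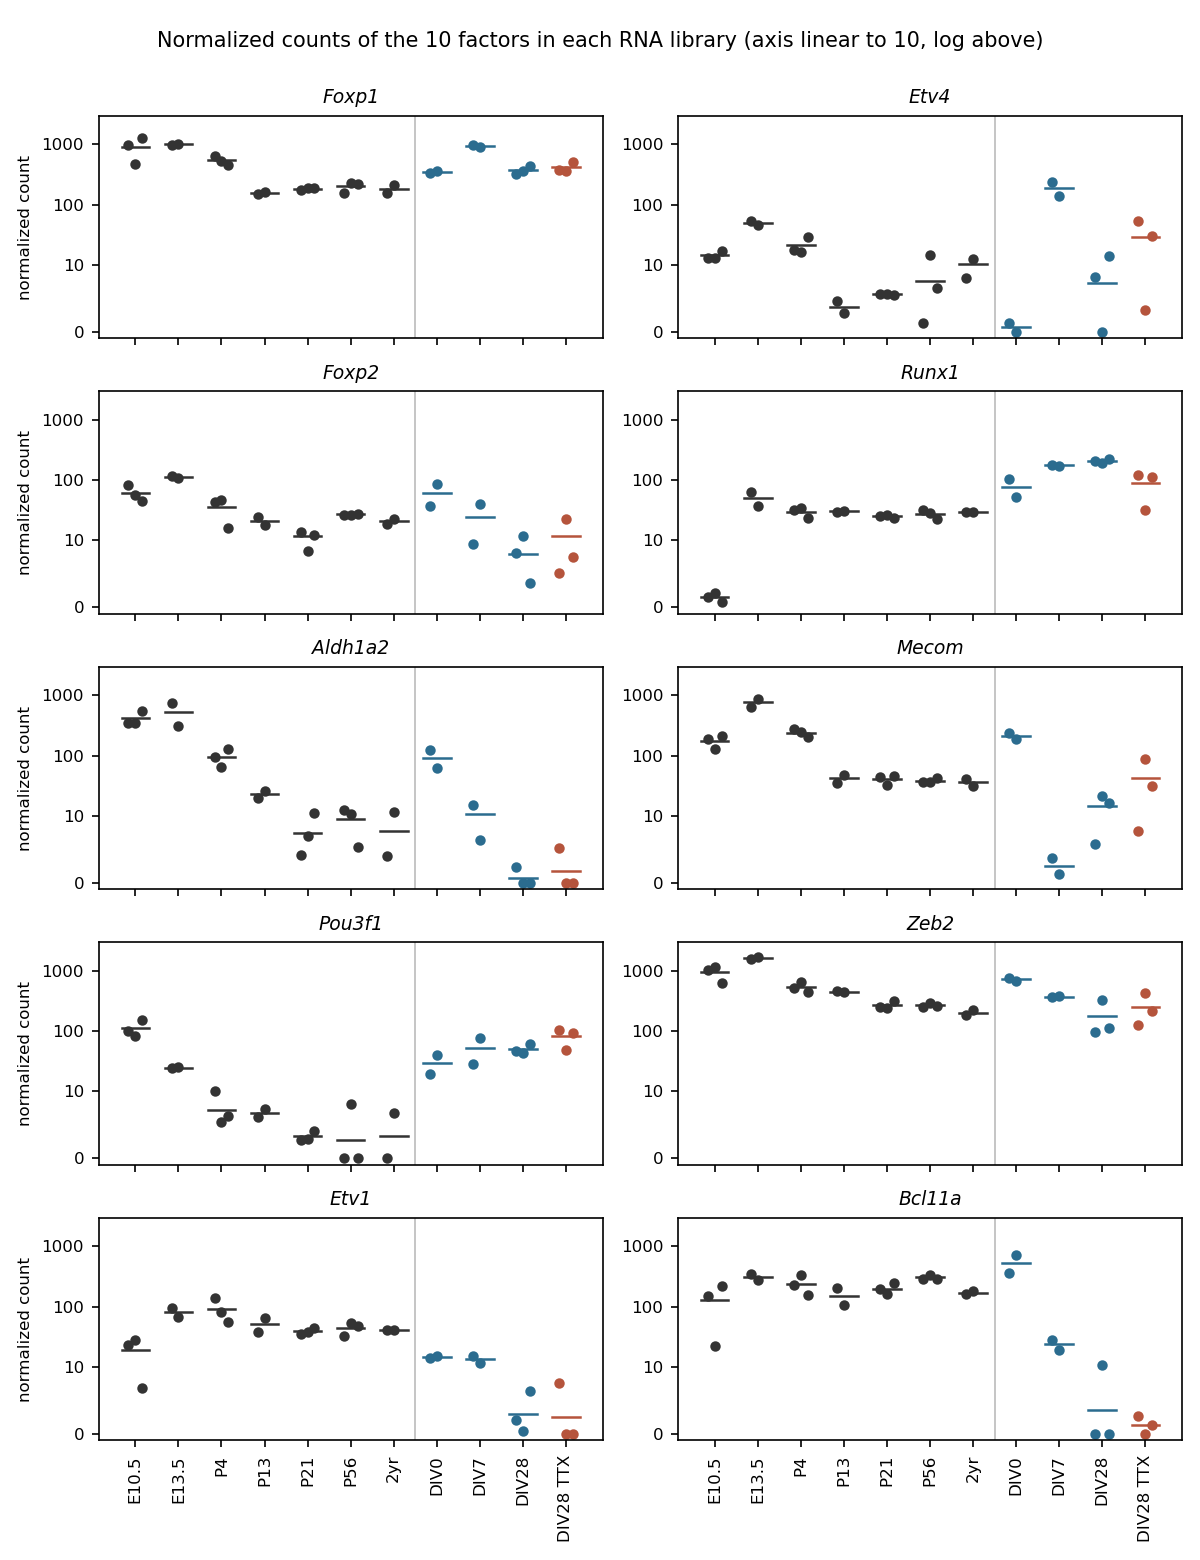
Normalized counts (vertical axis, linear to 10 and logarithmic above) of each of the 10 factors in every RNA library, by age or culture condition. Points are libraries and bars are group means, with tissue in black, culture in blue and culture with TTX in red; *Aldh1a2* falls from 316 to 763 at E13.5 to at most 11.1 at P21 in tissue, and *Bcl11a* falls in culture but not in tissue.

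Across the tissue ages, a gene was called changed when edgeR's quasi-likelihood test gave an unadjusted p under 0.001 with a change of at least 2-fold. Between E10.5 and E13.5, 4 of the 10 factors were called higher and 1 lower, where 24.6% of all 15030 tested genes rose and 19.4% fell. From E13.5 to P4 none was higher and 4 were lower (background 23.8% higher, 19.0% lower), and between P4 and P13 again none was higher and 4 were lower (5.80% higher, 7.54% lower). The later steps gave no calls. From P13 to P21 the count was 0 (background 1.50% higher, 5.80% lower), with 3 factors at an unadjusted p under 0.05, *Foxp2*, *Aldh1a2* and *Zeb2*. From P21 to P56 it was 0 (0.0466% higher, 0.126% lower), with 1 factor at that level, *Foxp2*, and from P56 to 2 years it was 0 (0.499% higher, 0.186% lower), with 0 factors at that level. DESeq2 also called 0 in these 3 steps. Over the whole interval from E13.5 to P21, 6 of the 10 factors were lower and 0 higher, against 26.3% lower and 29.8% higher of all genes. The median log2 fold change was -2.60 over the 10 factors and 0.15 over all genes. The 6 decreases stood when any 1 of the 5 libraries was left out, so the fall was not set by a single library. Markers of other cells fell over the same interval. Progenitor markers went from 3830 and 7304 normalized counts at E13.5 to 28.0 to 64.9 at P21, with 3 of 4 called lower. Fibroblast markers went from 2450 and 3923 to 81.1 to 372 (6 of 6 lower), pericyte markers from 2254 and 2287 to 32.2 to 81.5 (5 of 5 lower), and endothelial (8 of 8) and erythroid markers (5 of 5) were lower too. Their part in the 6 decreases was not tested.

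*Foxp1* (ENSMUSG00000030067.17, GRCm38 chr6:98925338-99522721, minus strand) encodes the forkhead protein that the lateral column requires. It stood at 965, 468 and 1294 normalized counts at E10.5 and at 995 and 1011 at E13.5. At P4 it stood at 637, 538 and 454. The embryonic libraries other than E10.5 replicate 2 all lay above those of P4. From P13 to 2 years the 10 libraries lay between 153 and 230 normalized counts, below every earlier one and with overlapping ages. The fall was 4.94-fold from E13.5 to P21 (log2 -2.30 ± 0.30, SE; adjusted p = 1.91e-06) and 3.27-fold from P4 to P13 (log2 -1.71 ± 0.32, adjusted p = 0.000570). The P4 to P13 call was lost without either P13 library (log2 -1.82 to -1.58 over the 5 leave-outs). In culture *Foxp1* stood at 337 and 364 at DIV0, at 986 and 915 at DIV7, and at 325, 356 and 445 at DIV28. Of these 3 groups only DIV7 reached the embryonic tissue level. *Foxp1* was the member called higher from DIV0 to DIV7 (log2 1.45 ± 0.26, adjusted p = 0.00217; 8.36% of 12890 genes higher) and the 1 member called from DIV7 to DIV28, lower (log2 -1.32 ± 0.23, adjusted p = 0.00328; background 4.09% lower, 3.62% higher). The rise was lost without DIV0 replicate 1, DIV0 replicate 2 or DIV7 replicate 1 (log2 1.347 to 1.502), and the fall without DIV7 replicate 1 (log2 -1.46 to -1.24).

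*Aldh1a2* (ENSMUSG00000013584.5, chr9:71215789-71296243, plus strand) encodes retinaldehyde dehydrogenase 2 and fell the furthest of the 10. It stood at 347, 353 and 548 normalized counts at E10.5, at 763 and 316 at E13.5, and at 95.3, 64.4 and 127 at P4. P13 held 19.6 and 26.0, and P21 held 4.19, 7.03 and 11.1. The 2 embryonic ages overlapped, each later age to P21 lay wholly below the one before, and the adult libraries at 4.03 to 12.4 did not separate from P21. From E13.5 to P21 the decrease was 63.8-fold (log2 -6.00 ± 0.48, adjusted p = 4.28e-09). The steps E13.5 to P4 (log2 -2.34 ± 0.35, adjusted p = 1.38e-05) and P4 to P13 (log2 -1.999 ± 0.43, adjusted p = 0.00181) were each called, the second not without P4 replicate 3, P13 replicate 1 or P13 replicate 2 (log2 -2.22 to -1.74). Culture gave the same order of levels, with 124 and 61.2 at DIV0 and 15.0 and 6.38 at DIV7. DIV28 held 2.32, 0 and 0, which is 2 counts in all against 135 at DIV0, so the DIV0 level was 254 times that of DIV28 with a 95% exact counting interval of 68.8 to 2114. Such intervals cover counting error only. The call from DIV0 to DIV28 (adjusted p = 0.000849) was lost without DIV0 replicate 1 (fitted log2 -9.77 to -6.42 over the leave-outs).

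Other genes of the retinoic acid pathway moved in both directions. Of 11 tested from a list of 12, 1 was called higher from E13.5 to P21 and 5 lower (29.8% and 26.3% of all genes; median log2 -1.004, against 0.15 over all genes). *Crabp2* (-11.5 ± 0.77), which encodes a carrier of retinoic acid, had the lowest log2 fold change among the called genes, and *Aldh1a1* (8.86 ± 0.88), another retinaldehyde dehydrogenase, was the one called higher. From DIV0 to DIV28, 2 of 11 were higher and 4 lower (11.5% and 7.45% of all genes, median log2 -1.62 against 0.06). There *Aldh1a3* (4.96 ± 0.76) and *Rdh10* (2.29 ± 0.30), which also act in synthesis, were the called increases, and *Crabp1* (-9.48 ± 1.22) and the receptor gene *Rarb* (-3.90 ± 0.45) the lowest. *Aldh1a2* was thus lower while another gene for the same enzymatic step was higher, *Aldh1a1* in tissue and *Aldh1a3* in culture.

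*Pou3f1* (ENSMUSG00000090125.3, chr4:124656807-124660655, plus strand), the POU factor also called SCIP, was highest at E10.5 with 102, 84.3 and 152 normalized counts. E13.5 held 24.0 and 25.7 and P4 10.1, 5.46 and 6.24. From P13 to 2 years the 10 libraries held between 0 and 8.04, with 3 of them at 0. The decrease from E10.5 to E13.5 was called (log2 -2.32 ± 0.52, adjusted p = 0.000650) and was lost without E10.5 replicate 3, E13.5 replicate 1 or E13.5 replicate 2 (log2 -2.50 to -1.86). In culture it did not fall. DIV0 held 19.6 and 39.8, DIV7 28.1 and 76.5, DIV28 47.5, 43.6 and 62.0, and TTX 104, 48.9 and 94.7. Every DIV28 library lay above every tissue library from E13.5 on.

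*Etv1* and *Etv4* encode related ETS factors. *Etv1* (ENSMUSG00000004151.17, chr12:38779380-38870484, plus strand) stood at 22.9, 28.3 and 6.87 normalized counts at E10.5, at 96.0 and 68.3 at E13.5 and at 140.2, 81.9 and 54.9 at P4. Later ages lay between 33.0 and 64.6, above all E10.5 libraries. It was called higher from E10.5 to E13.5 (log2 1.91 ± 0.42, adjusted p = 0.000589), a call lost without E13.5 replicate 1 (log2 1.65 to 2.28), and no later step of tissue was called. In culture *Etv1* held 20.7 expected counts over both DIV0 libraries, 17 at DIV7 and 11.5 over the 3 DIV28 libraries, too few to pass the filter on low counts (5 CPM in all libraries of some group), and it was not tested there.

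*Etv4* (ENSMUSG00000017724.14, chr11:101769742-101785371, minus strand) had a peak at E13.5, with 52.6 and 45.5 normalized counts against 12.98, 13.1 and 16.8 at E10.5 and 17.9, 16.4 and 28.7 at P4. From P13 on, libraries held 1.38 to 14.7. The rise to E13.5 (log2 1.61 ± 0.41, adjusted p = 0.00195) was lost without any 1 of 4 libraries, E10.5 replicates 1 and 2 and E13.5 replicates 1 and 2 (log2 1.504 to 1.925). The fall from E13.5 to P21 was 7.74-fold (log2 -2.95 ± 0.51, adjusted p = 3.95e-05), and that from P4 to P13 (log2 -2.29 ± 0.55, adjusted p = 0.00407) was lost without P4 replicate 3 or either P13 library (log2 -2.79 to -2.01). Culture had its own peak at DIV7, where *Etv4* stood at 234 and 142 normalized counts, above all other 26 libraries. DIV0 held 1.31 and 0, which is 1 count, so DIV7 was 254 times DIV0 with a counting interval of 45.2 to 10088. DIV28 held 8.11, 0 and 13.9. Neither step passed the limit of the call (DIV0 to DIV7, adjusted p = 0.0111; DIV7 to DIV28, log2 -4.80 ± 1.16, adjusted p = 0.0160), although the DIV7 libraries overlapped neither group. Fibroblast markers went from 6.53 and 10.7 at DIV0 to 2309 and 137 at DIV7, and astrocyte markers from 19.6 and 18.3 to 263 and 768. Their part in the *Etv4* level was not tested.

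Of 19 other genes of pools and limb innervation, 18 were tested in tissue. From E10.5 to E13.5, 8 were higher and 3 lower (24.6% and 19.4% of all genes; median log2 1.15, against 0.13 over all genes), led by *Cdh9* (7.42 ± 0.52), a type II cadherin, and *Plxnd1* (5.84 ± 0.31), a semaphorin receptor that endothelial cells also use, with the homeodomain gene *Nkx6-1* (-4.94 ± 0.22) and the GDNF receptor gene *Ret* (-1.49 ± 0.38) lowest among those called. From E13.5 to P21, 3 were higher and 5 lower, no more than the 29.8% and about the 26.3% of all genes (median log2 0.14, against 0.15), with *Cdh10* (1.43) and the GDNF co-receptor gene *Gfra1* (1.34) highest and *Plxnd1* (-6.34) and *Nkx6-1* (-2.89) lowest. From DIV0 to DIV28, 7 of 17 were higher and 4 lower (11.5% and 7.45% of all genes, median log2 0.96 against 0.06). *Sema3e* (7.50 ± 0.69), a ligand of PLXND1, and *Etv5* (5.26 ± 1.21), a relative of *Etv1* and *Etv4*, were highest among those called. *Epha4* (-5.26 ± 0.39), a guidance receptor, and *Nkx6-2* (-4.87 ± 0.99) were lowest.

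*Runx1* (ENSMUSG00000022952.17, chr16:92601466-92826149, minus strand) was nearly silent at E10.5, with 1.53, 2.07 and 0.763 normalized counts. E13.5 held 64.6 and 36.9, and the 13 libraries from P4 to 2 years lay between 22.4 and 33.8. The rise to E13.5 was 28.4-fold (log2 4.83 ± 0.41, adjusted p = 1.66e-08), stood in all 5 leave-outs (log2 4.39 to 5.18), and was 4.24 ± 0.42 on the log2 scale when P4 took the place of E13.5. No later tissue step was called. RUNX1 is also a factor of microglia and blood cells. The 8 microglial markers summed to 1.53 to 5.53 normalized counts at E10.5, with 5 of 8 at 0, to 38.2 and 87.7 at E13.5, and to 16.5 to 52.0 from P4 to 2 years, a range near that of *Runx1* itself, and their part in the tissue level was not tested. In culture *Runx1* stood at 104 and 52.0 at DIV0 and at 180.1 and 171 at DIV7, where the microglial markers summed to at most 4.59. It was therefore present in libraries with almost no microglial RNA. DIV28 held 207, 194 and 224, above every tissue library, with microglial sums of 26.3 to 46.5.

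*Mecom* (ENSMUSG00000027684.16, chr3:29951296-30548008, minus strand), also called *Evi1*, stood at 190.1, 129 and 211 normalized counts at E10.5, at 645 and 884 at E13.5, and at 276, 247 and 202 at P4. From P13 to 2 years it lay between 31.2 and 48.3. E13.5 was above every other group and the adult ages overlapped. The rise to E13.5 (log2 1.96 ± 0.21, adjusted p = 3.32e-07) and the falls to P4 (log2 -1.51 ± 0.21, adjusted p = 7.69e-06) and P13 (log2 -2.46 ± 0.26, adjusted p = 2.59e-06) stood in every leave-out. *Mecom* is also an endothelial gene, and endothelial markers rose and fell over the same ages. Their part in the E13.5 and P4 levels was not tested. Between the ages with few of these transcripts, E10.5 (8.40 to 36.0) and P21 (30.8 to 67.5), *Mecom* was lower at P21 by 2.13 ± 0.24 on the log2 scale (adjusted p = 1.43e-07). E10.5 against P4 gave 0.45 ± 0.20, which was not called. E10.5 also differs from both later ages in isolation and segment, which cannot be told apart from age here. In culture the level was 239 and 191 at DIV0, with 5 of the 8 endothelial markers at 0, and 3.75 and 1.28 at DIV7. With 3 counts at DIV7 against 308, DIV0 was 95.3 times DIV7 (counting interval 32.3 to 464). The call (adjusted p = 0.00208) was lost without DIV7 replicate 1 or 2 (fitted log2 -7.32 to -5.84). DIV28 held 5.79, 21.6 and 16.0.

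**Figure D2:**
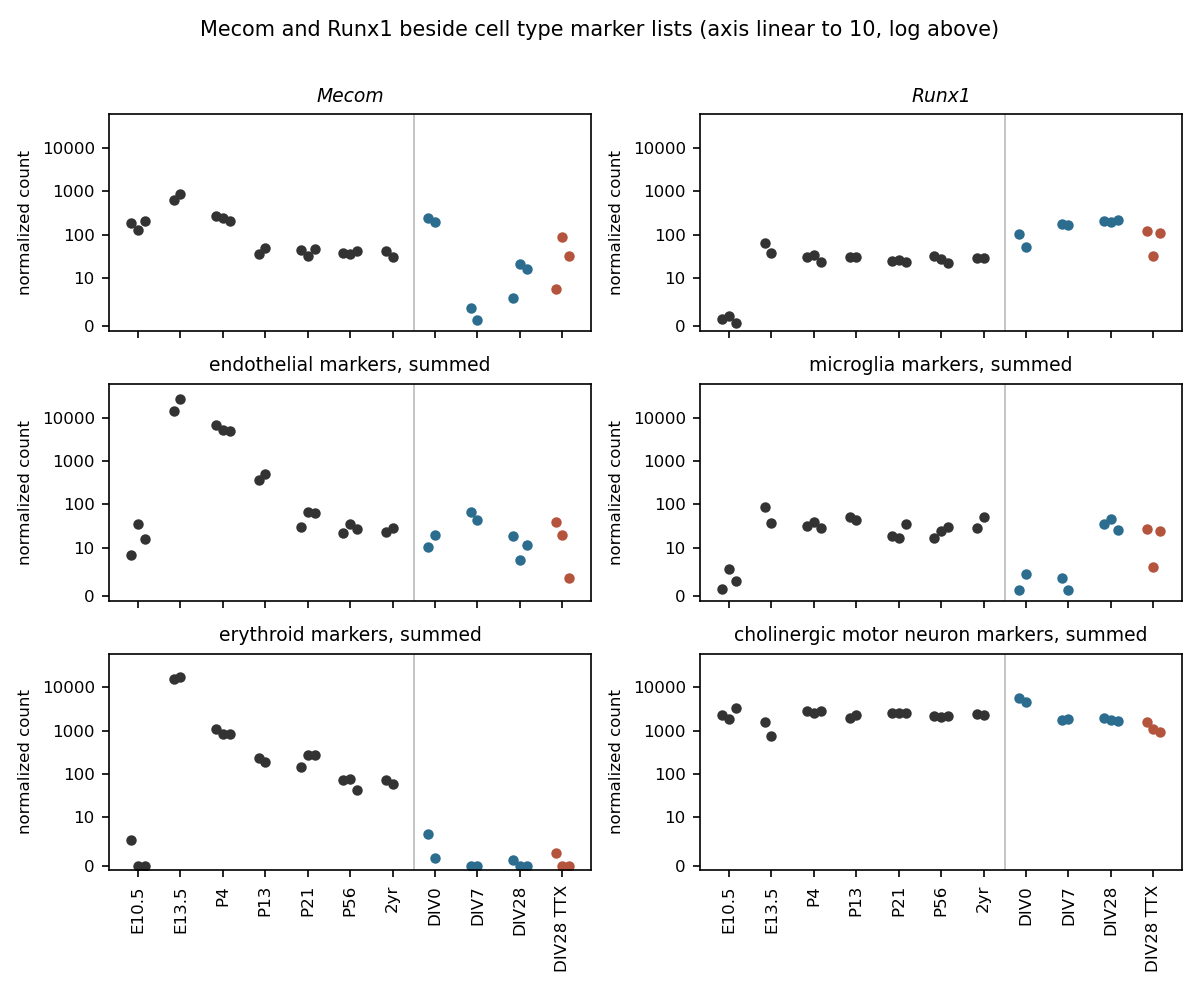
Normalized counts (vertical axes, linear to 10 and logarithmic above) of *Mecom* and *Runx1* in each RNA library, above the summed counts of endothelial, erythroid, microglial and cholinergic motor neuron markers in the same libraries. Each point is a library; *Mecom* and the endothelial sum (14426 and 27092) both peak at E13.5, while *Mecom* is at 191 to 239 at DIV0, where the endothelial sum is at most 19.9.

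*Foxp2* (ENSMUSG00000029563.16, chr6:14901349-15441977, plus strand) was the less abundant of the 2 forkhead genes in all 28 libraries, with *Foxp1* making up 73.8% to 99.4% of their summed TPM. It stood at 84.0, 56 and 44.2 normalized counts at E10.5, at 119 and 109 at E13.5 and at 43.8, 46.9 and 16.2 at P4, and P21 held 13.98, 8.44 and 12.4. E13.5 was above all other groups. The decrease from E13.5 to P21 was 8.76-fold (log2 -3.13 ± 0.40, adjusted p = 1.22e-06). That from E13.5 to P4 (log2 -1.51 ± 0.34, adjusted p = 0.000712) was lost without E13.5 replicate 1 or 2 or P4 replicate 3 (log2 -1.76 to -1.18). At P56 it stood at 26.1, 26.8 and 27.7, above the 3 libraries of P21 (log2 1.196 ± 0.43, adjusted p = 0.632), which did not pass. Culture ran from 37.9 and 85.6 at DIV0 to 8.11, 11.95 and 3.65 at DIV28 (log2 -2.87 ± 0.79, adjusted p = 0.0133), also short of the limit.

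*Zeb2* (ENSMUSG00000026872.17, chr2:44983632-45117395, minus strand), a zinc-finger repressor also used by oligodendrocytes, stood at 1041, 1182 and 628 normalized counts at E10.5 and at 1577 and 1731 at E13.5. P4 held 517, 655 and 443, and from P21 to 2 years all libraries lay between 185.5 and 320.5. The decrease from E13.5 to P21 was 5.46-fold (log2 -2.45 ± 0.22, adjusted p = 1.84e-08), most of it in the step to P4 (log2 -1.47 ± 0.21, adjusted p = 1.05e-05). At P13 *Zeb2* stood at 464 and 441. Oligodendrocyte markers went from 268 and 338 at E13.5 to 10803 and 10924 at P13, while progenitor markers went from 3830 and 7304 to 93.7 and 131, and endothelial and fibroblast markers were lower too. The part of these cells in the *Zeb2* level was not tested. In culture *Zeb2* went from 774 and 682 at DIV0 to 366 and 377 at DIV7. DIV28 held 96.2, 325 and 112, so replicate 2 stood apart. The decrease from DIV0 to DIV28 was not called with all libraries (log2 -1.98 ± 0.52, adjusted p = 0.0110) and was called without the DIV28 and TTX libraries numbered 2 (log2 -2.80 ± 0.29, adjusted p = 0.000188).

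*Bcl11a* (ENSMUSG00000000861.15, chr11:24078056-24174123, plus strand) was called lower in culture and in no step of tissue. In tissue it stood at 350 and 274 normalized counts at E13.5, 193, 163 and 243 at P21, and 163 and 179 at 2 years. At E10.5 it stood at 152, 22.1 and 217. In those 3 libraries inhibitory interneuron markers summed to 360, 116 and 504 and cholinergic motor neuron markers to 2318, 1849 and 3406, both lowest in the same library. Progenitor markers summed to 7459, 9421 and 4100, highest in that library. The part of these cells in the *Bcl11a* level was not tested. In culture *Bcl11a* was at 357 and 718 at DIV0, at 28.1 and 19.1 at DIV7 and at 0, 10.7 and 0 at DIV28. All 33 counts of DIV28 lay in replicate 2, the deepest library. The decrease from DIV0 to DIV28 (log2 -6.71 ± 0.88, adjusted p = 0.000134) stood in all 5 leave-outs (log2 -7.15 to -6.22, and -11.96 without DIV28 replicate 2). The call from DIV0 to DIV7 (log2 -4.52 ± 0.95, adjusted p = 0.00535) was lost without any 1 of the 4 libraries of DIV0 replicates 1 and 2 and DIV7 replicates 1 and 2 (log2 -4.91 to -3.92).

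Counted over culture, 1 factor was higher and 2 were lower from DIV0 to DIV7, *Mecom* and *Bcl11a*, where 2.81% of all genes were lower. Over the 28 days none of the 9 tested was higher and 3 were lower, *Aldh1a2*, *Mecom* and *Bcl11a* (background 11.5% higher, 7.45% lower; median log2 -1.98 over the factors, 0.06 over all genes). Progenitor markers went from 2193 and 1819 at DIV0 to 5.79 to 29.7 at DIV28, and cholinergic markers from 4675 and 5764 to 1634 to 1987, with 3 of 5 called lower, and their part was not tested. The *Mecom* decrease (log2 -3.78 ± 0.74, adjusted p = 0.00193) was lost without DIV0 replicate 1, DIV0 replicate 2, DIV28 replicate 1 or DIV28 replicate 3 (log2 -4.21 to -3.48). Without DIV28 replicate 3, the library titled DIV0, 2 of the 3 calls stood, and with it counted as DIV0 the number called was 0.

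Culture and tissue were then compared at matched stages, with the 25 libraries without TTX in 1 fit of 15521 genes. At the early stage, E13.5 against DIV0, none of the 10 factors was higher in culture and 5 were lower (background 15.1% higher, 24.3% lower). *Foxp1* (log2 -1.54 ± 0.30) and *Mecom* (log2 -1.85 ± 0.30) were lower in every leave-out. *Aldh1a2* (log2 -2.54 ± 0.46) was not called without E13.5 replicate 1 (log2 -3.22 to -1.69 over the leave-outs), nor *Etv4* without DIV0 replicate 1 or 2. *Etv1* (log2 -2.48 ± 0.64) was not called when E13.5 replicate 1 or 2 or DIV0 replicate 1 or 2 was left out (log2 -2.69 to -2.12). *Etv4* held 163 counts at E13.5 and 1 at DIV0, 67.8 times more for its depth, with a counting interval of 11.99 to 2693. The cultured cells at DIV0 thus held *Foxp1*, *Aldh1a2*, *Mecom*, *Zeb2* and *Bcl11a* at 61.2 normalized counts or more in both libraries, and almost no *Etv4*.

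At the later stage, P21 against DIV28, 3 factors were higher in culture and 3 lower (background 13.3% higher, 13.1% lower). *Runx1* was 8.575-fold higher (log2 3.10 ± 0.27, adjusted p = 7.21e-09) and *Pou3f1* 15.7-fold higher (log2 3.98 ± 0.69, adjusted p = 5.75e-05). *Bcl11a* was 34.5-fold lower (log2 -5.11 ± 0.71, adjusted p = 4.30e-06) and *Etv1* 14.4-fold lower (log2 -3.84 ± 0.63, adjusted p = 3.26e-05). These 4 stood in all 6 leave-outs. The fitted log2 of *Bcl11a* was -10.7 without DIV28 replicate 2, which holds all its counts at DIV28, and -5.23 to -4.62 without any other library. That of *Etv1* was -5.35 without DIV28 replicate 3, -2.94 without DIV28 replicate 2 and -3.90 to -3.73 without any other. *Foxp1* (log2 1.09 ± 0.25, adjusted p = 0.000887) was not called without P21 replicate 1, P21 replicate 2 or DIV28 replicate 3 (log2 0.98 to 1.18), and *Mecom* (log2 -1.27 ± 0.32, adjusted p = 0.00212) not without P21 replicate 1, P21 replicate 3, DIV28 replicate 1 or DIV28 replicate 3 (log2 -1.730 to -1.002). By TPM *Foxp1* went the other way, with 7.06 to 9.44 at DIV28 against 9.47 to 12.02 at P21, so its direction here depends on the measure. *Aldh1a2* held 16 counts at P21 and 2 at DIV28, 19.8 times more for its depth with a counting interval of 4.66 to 178, and was not called.

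Whether a factor changed differently over maturation in the 2 systems was tested by the interaction, the change from DIV0 to DIV28 minus that from E13.5 to P21. It was called higher for 3 factors and lower for 1 (background 24.2% higher, 17.5% lower). *Foxp1* fell in tissue and did not pass a test of change in culture (log2 0.13 ± 0.24), a difference of 2.63 ± 0.39 (log2, adjusted p = 5.28e-06). By TPM *Foxp1* was lower in culture too, at 7.06 to 9.44 at DIV28 against 13.73 to 14.24 at DIV0. *Runx1* differed by 2.46 ± 0.41 (adjusted p = 2.24e-05), with changes of -0.83 in tissue and 1.43 in culture, neither called alone. *Bcl11a* differed by -5.87 ± 0.97 (adjusted p = 2.01e-05), with a log2 change of -0.49 ± 0.52 in tissue. These 3 stood in all 10 leave-outs. The values ran from 2.58 to 2.79 for *Foxp1* and from 1.96 (without E13.5 replicate 1) to 3.15 (without DIV0 replicate 1) for *Runx1*. For *Bcl11a* they ran from -6.21 to -5.21, and to -11.4 without DIV28 replicate 2. *Pou3f1* differed by 3.77 ± 0.97 (adjusted p = 0.00188), and its call was lost in 7 of 10 leave-outs (log2 3.42 to 4.43), those of E13.5 replicates 1 and 2, P21 replicates 1, 2 and 3, DIV0 replicate 1 and DIV28 replicate 3. For *Aldh1a2* (-1.34 ± 1.13), *Foxp2* (0.52 ± 0.76), *Mecom* (0.59 ± 0.44), *Zeb2* (0.69 ± 0.49) and *Etv1* (-1.37 ± 0.91) the interaction was not called. Nor was it for *Etv4*, whose fitted difference was the largest of the 10 (6.15 ± 1.64, adjusted p = 0.00257) and rests in part on 1 count at DIV0; DESeq2 called it.

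**Figure D3:**
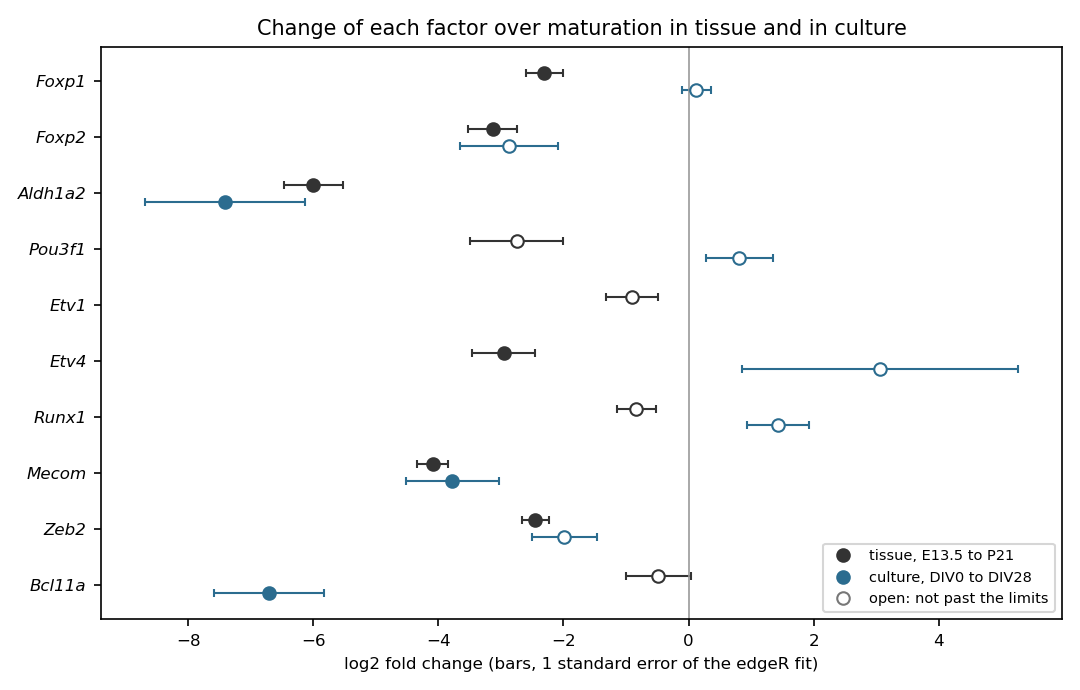
Log2 fold change (horizontal axis) of each factor from E13.5 to P21 in tissue (black) and from DIV0 to DIV28 in culture (blue), from the separate edgeR fits of the tissue and the culture libraries. Bars are 1 standard error and open points did not pass the limits; *Aldh1a2*, *Mecom*, *Foxp2* and *Zeb2* lie left of 0 in both systems, *Foxp1* only in tissue, and *Bcl11a* reaches -6.71 in culture.

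Silencing with TTX asked whether activity bears on these factors. None of the 9 tested was called between DIV28 and DIV28 with TTX by edgeR or by DESeq2 (background 0.279% higher, 0.403% lower), and 2 had an unadjusted p under 0.05, *Runx1* and *Mecom*. *Runx1* stood at 124, 31.5 and 111 normalized counts with TTX against 207, 194 and 224 without, 2 groups that did not overlap (log2 -1.28 ± 0.43, adjusted p = 0.384). It was lower with TTX in 3 of 3 pairs of cultures grown in parallel, and with the pair as a block it was called (log2 -1.46, adjusted p = 0.0292). The microglial sums were 27.1, 5.97 and 24.0 with TTX, in the order of *Runx1*, and 35.9, 46.5 and 26.3 without, in the reverse order. The part of microglia in the difference was not tested. *Mecom* stood at 7.73, 89.6 and 31.6 with TTX against 5.79, 21.6 and 16.0 (log2 1.53 ± 0.67, adjusted p = 0.608). *Etv4* stood at 54.1, 3.26 and 30.3 against 8.11, 0 and 13.9 (log2 2.06 ± 1.09, adjusted p = 0.728). Both were higher in 3 of 3 pairs and neither passed with the block (adjusted p = 0.0525 and 0.0577). Without the pair numbered 2, *Runx1* differed by -0.90 ± 0.33 on the log2 scale and no factor was called. Among the other lists, 1 of 17 tested pool and limb genes was called, *Epha4*, higher with TTX (log2 2.79 ± 0.36, adjusted p = 0.0116), and 1 of 4 tested visceral genes, *Rxfp1*, lower (log2 -1.65 ± 0.32, adjusted p = 0.0746).

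Hox and LIM genes give the segmental and columnar setting of these factors, and the sums of *Hox9* and of *Hox10* to *Hox13* genes separated the tissue from the culture. *Hox4* to *Hox8* genes summed to 1701 and 1857 normalized counts at E13.5 and to 1504 and 1850 at DIV0, levels that overlapped. *Hox9* genes, which mark the thoracic level, summed to 1900 to 2314 at E10.5, to 366 and 490 at E13.5 and to 2.61 and 16.8 at DIV0. *Hox10* to *Hox13* genes, of lumbar and sacral levels, summed to 472 and 545 at E13.5 and to 0 and 3.06 at DIV0, with 11 of 12 at 0. At DIV0 against E13.5, all 4 *Hox9* and 4 of 4 tested *Hox10* to *Hox13* genes were lower. Of 15 *Hox4* to *Hox8* genes 5 were higher and 7 lower, where 15.1% of all genes were higher and 24.3% lower. At DIV28 the *Hox10* to *Hox13* sum was 30.6 to 70.8, against 129.8 to 138 at P21. Of the Hox genes summed, from *Hox4* to *Hox13*, DIV0 thus held almost only those of *Hox4* to *Hox8*, while tissue held all 3 sets. *Hox1* to *Hox3* were not summed. Of the LIM and Mnx genes in tissue, 6 of 6 were called lower in the step from E10.5 to E13.5 (median log2 -3.49, against 0.13). *Lhx3* (-4.36 ± 0.29) of the medial column and *Mnx1* (-4.12 ± 0.33) were lowest. Cells at E10.5 were sorted by GFP under the promoter of *Mnx1* (Hb9), and nuclei at E13.5 were taken by Chat-Cre. Age and this change of isolation cannot be told apart in these decreases. Endothelial and erythroid markers rose over the same step. The part of the sort and of these cells was not tested. In culture 6 of 6 LIM and Mnx genes were lower from DIV0 to DIV28 (7.45% of all genes, median log2 -3.72 against 0.06). *Lhx1* (-7.58 ± 1.04), a marker of the lateral division of the lateral column, and *Lhx3* (-6.30 ± 0.98) were lowest. Between the systems, 5 of 6 were higher at DIV0 than at E13.5 (15.1% of all genes, median log2 1.97 against -0.17). At DIV28 against P21, 2 of 6 were lower (13.1% of all genes). Of visceral motor neuron markers, 3 of 8 tested were higher from E13.5 to P21 (29.8% of all genes), *Nos1* (5.25 ± 0.45), *Rxfp1* (4.52) and *Hpgds* (3.38), and 2 lower (26.3% of all genes), *Pde8a* (-4.02) and *Gnb4* (-1.83), shares near those of all genes.

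Chromatin at the 10 genes was read from peaks that the authors called in each library. A peak lay within 1000 bases of an annotated start in 22 of 22 ATAC libraries for 9 of the genes. These 9 have from 1 annotated start (*Pou3f1*) to 29 (*Zeb2*), and a gene with more starts has more places for a peak. *Aldh1a2*, which has 1 annotated start, was the exception with 16 of 22. Within 250 bases of a start, *Aldh1a2* had a peak in 15 libraries, *Mecom* in 18 and *Bcl11a* in 21. Its highest fold enrichment at the start was 5.02 and 5.70 at E10.5, 12.5 and 7.16 at E13.5, 5.03 and 3.20 at P4, and 2.15 to 2.98 at P13 and P21. One P56 library had a peak of 2.63 and the other P56 library and both 2-year libraries had none. In culture it was 10.96 and 11.3 at DIV0 and 3.22 and 4.40 at DIV7, with no peak in either DIV28 library and 1 of 2.37 in 1 TTX library. The median fold enrichment over all peaks of a library ranged from 2.81 to 5.92 and was highest at DIV0 (5.84 and 5.92), and the read depth behind the peaks is unknown, so no test was made. *Aldh1a2* peaks and RNA both went down with age and with days in culture.

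A pair of stretches carried peaks of *Aldh1a2* in both libraries of E10.5, E13.5, P4 and DIV0 and in no library of another group, among the 75000 highest peaks of each library. They were chosen after their values were seen. They are printed because they met this rule, which itself asks that the other groups lack them among the highest peaks. Lower peaks remained near the start at P13 and P21 (2.15 to 2.98) and at DIV7 (3.22 and 4.40). The first is the promoter from RefSeq (GRCm38, chr9:71215539-71215838, plus strand, from 250 bases before the start of transcription into the first exon), 78.0% G and C, with a match to the E-box CAGGTG, which ZEB proteins bind, on its reverse strand in capitals. The second lies in an intron 25979 bases after the start (chr9:71241618-71241917, plus strand), with the homeodomain core TAATTA in capitals.
Aldh1a2 promoter: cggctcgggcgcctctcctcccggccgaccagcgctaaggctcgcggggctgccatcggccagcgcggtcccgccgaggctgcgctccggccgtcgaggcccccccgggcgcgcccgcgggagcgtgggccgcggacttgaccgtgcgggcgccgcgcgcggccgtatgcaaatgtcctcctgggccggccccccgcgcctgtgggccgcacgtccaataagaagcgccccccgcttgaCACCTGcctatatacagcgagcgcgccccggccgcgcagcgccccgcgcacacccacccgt
Aldh1a2 intron site: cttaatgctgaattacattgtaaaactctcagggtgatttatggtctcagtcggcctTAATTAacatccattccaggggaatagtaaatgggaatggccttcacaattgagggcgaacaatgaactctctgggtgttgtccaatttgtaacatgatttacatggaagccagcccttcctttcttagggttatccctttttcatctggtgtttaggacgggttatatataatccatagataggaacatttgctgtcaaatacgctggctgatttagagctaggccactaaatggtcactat
CAGGTG was in 20.2% of the 32851 RefSeq promoters and TAATTA in 5.29%, searched on both strands. TAATTA was in 10.3% of the 300-base windows around the 75000 highest summits of E13.5 replicate 1 and in 4.61% of those of DIV28 replicate 1. The intron site had fold enrichments of 5.16 and 11.5 at E10.5, 19.4 and 14.04 at E13.5, 3.96 and 2.97 at P4, 8.59 and 4.93 at DIV0 and 2.82 and 2.64 at DIV7, and no peak at any level in the 8 libraries of P13 to 2 years or the 4 of DIV28 and TTX.

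Sites that opened late in culture were found at *Runx1* and *Bcl11a*. *Runx1* had 4 sites in both libraries of DIV28 and TTX and in no other library. The one printed, chosen after its values were seen, lies in an intron 171395 bases after the first start (chr16:92654604-92654903, printed on the plus strand), had fold enrichments of 12.8 and 7.67 at DIV28 and 9.53 and 7.46 with TTX, and no peak in the other 18 libraries. *Bcl11a*, whose RNA was almost lost at DIV28, had 1 such site, over the start of a noncoding transcript inside the gene, 64450 bases after the first start (chr11:24142356-24142655, plus strand), with 12.8 and 6.56 at DIV28 and 11.6 and 5.66 with TTX against at most 3.63 in the rest. Both held the AP-1 motif TGANTCA, which FOS and JUN proteins bind, in capitals in the *Runx1* site.
Runx1 intron site: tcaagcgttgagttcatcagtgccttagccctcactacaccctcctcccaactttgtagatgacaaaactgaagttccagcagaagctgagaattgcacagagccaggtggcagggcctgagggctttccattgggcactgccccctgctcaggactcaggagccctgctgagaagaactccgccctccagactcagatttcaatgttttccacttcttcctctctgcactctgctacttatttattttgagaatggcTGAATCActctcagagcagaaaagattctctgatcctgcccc
TGANTCA was in 48.4% of the windows around the highest summits of DIV28 replicate 1, 10.7% of those of E13.5 replicate 1 and 7.81% of promoters, so its presence in late culture sites is common. A different *Bcl11a* site, in an intron 26424 bases after the first start, was open at E10.5 (6.46 and 13.3), E13.5 (11.4 and 8.79) and DIV0 (7.27 and 4.28). It was chosen after its values were seen, and had no peak at DIV7, DIV28 or with TTX, where the RNA was low. In tissue the site and the RNA did not go together. The site had no peak at P56 or 2 years, and peaks of 2.51, 1.91 and 2.05 in single libraries of P4, P13 and P21. *Bcl11a* RNA stood at 287 to 342 normalized counts at P56.

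*Pou3f1* and *Mecom* each had a site that ranked among the highest peaks in tissue nuclei alone. Downstream of *Pou3f1*, 15724 bases after its start, a site among the highest peaks of every library from E13.5 to 2 years had fold enrichments of 11.3 and 10.8 at E13.5 and 3.05 to 4.65 later, low peaks of 2.11 to 3.30 at E10.5, DIV28 and TTX, and none at DIV0 or DIV7. It stayed accessible in tissue at ages when *Pou3f1* RNA was near 0, and holds TAATTA 2 times (chr4:124672381-124672680, plus strand, capitals).
Pou3f1 downstream site: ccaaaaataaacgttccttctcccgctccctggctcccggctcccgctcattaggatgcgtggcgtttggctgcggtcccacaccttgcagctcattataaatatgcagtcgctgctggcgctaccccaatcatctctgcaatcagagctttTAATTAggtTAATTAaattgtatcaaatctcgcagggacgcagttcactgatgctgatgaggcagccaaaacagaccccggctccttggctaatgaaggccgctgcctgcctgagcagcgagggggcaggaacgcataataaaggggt
At *Mecom*, an intron site 467025 bases after the first start had 21.6 and 10.9 at E13.5, 7.198 and 3.66 at P4 and 2.30 to 5.53 later, with no peak at E10.5, DIV0, DIV7 or DIV28 and 1 of 1.98 with TTX. Endothelial markers were high in the RNA libraries of E13.5 and P4. The study's methods report some blood vessel contamination in the bead-purified RNA nuclei of these ages, and higher purity in the sorted ATAC nuclei. The part of endothelial cells in this site was not tested.

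**Figure D4:**
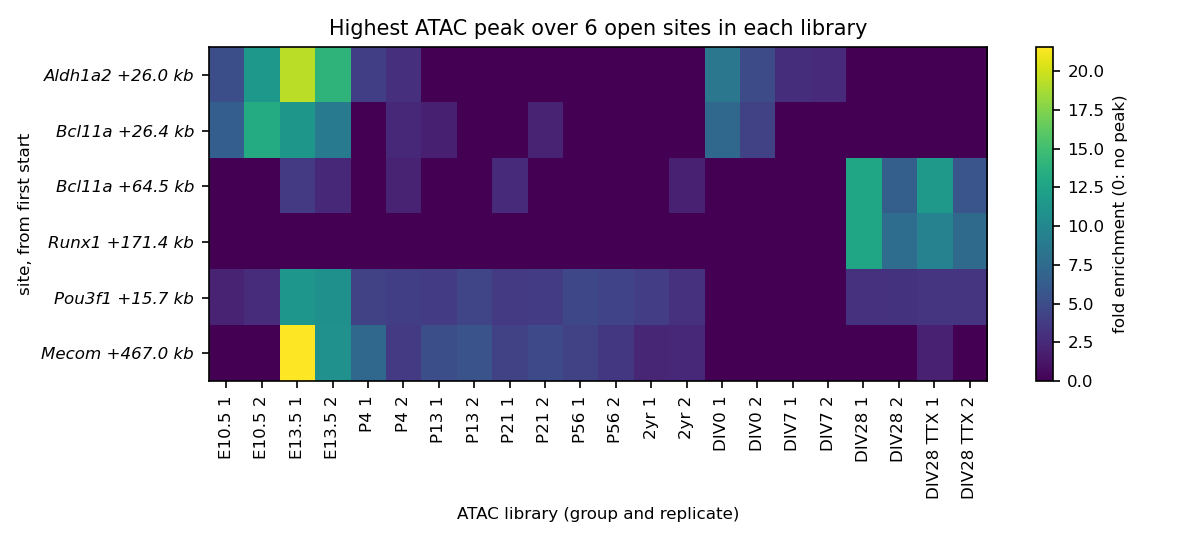
Highest fold enrichment (color scale, 0 where no peak was called) over 6 sites of *Aldh1a2*, *Bcl11a*, *Runx1*, *Pou3f1* and *Mecom* in each of the 22 ATAC libraries, with distances in kilobases from the first annotated start. The *Runx1* site has peaks of 7.46 to 12.8 in the 4 libraries of DIV28 and TTX and in no other, and the *Aldh1a2* site is open in embryos, P4, DIV0 and DIV7.

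The number of summits in a gene and 20000 bases either side, among the 75000 highest of each library, differed between ages. The lists these come from differ in length and make-up, with 99975 and 122238 summits at E10.5 (27.1% and 22.95% within 1000 bases of a start) and 175491 and 195704 at 2 years (18.1% and 17.1%), and a shift over all genes was not tested. *Zeb2* had 20 and 28 at E10.5, 5 and 6 at E13.5 and 0 and 0 at 2 years. That order differed from its RNA, which was higher at E13.5 than at E10.5 in every library. *Mecom* had 27 and 33 at E10.5, 20 and 31 at E13.5, 8 and 9 at P21 and 4 and 1 at 2 years, and in culture 26 and 23 at DIV0 and 11 and 8 at DIV28. *Bcl11a* went from 12 and 13 at DIV0 to 3 and 3 at DIV28, with 6 and 7 at P21. *Runx1* had 13 and 9 at DIV0, 6 and 12 at DIV7, 15 and 11 at DIV28 and 13 and 13 with TTX. DIV28 overlapped DIV0 and DIV7, and the DIV28 and TTX libraries lay above 4 and 6 at P21 and 2 and 4 at P56. *Foxp1*, the longest locus, had the most summits in all groups, from 13 to 51 in single libraries.

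**Figure D5:**
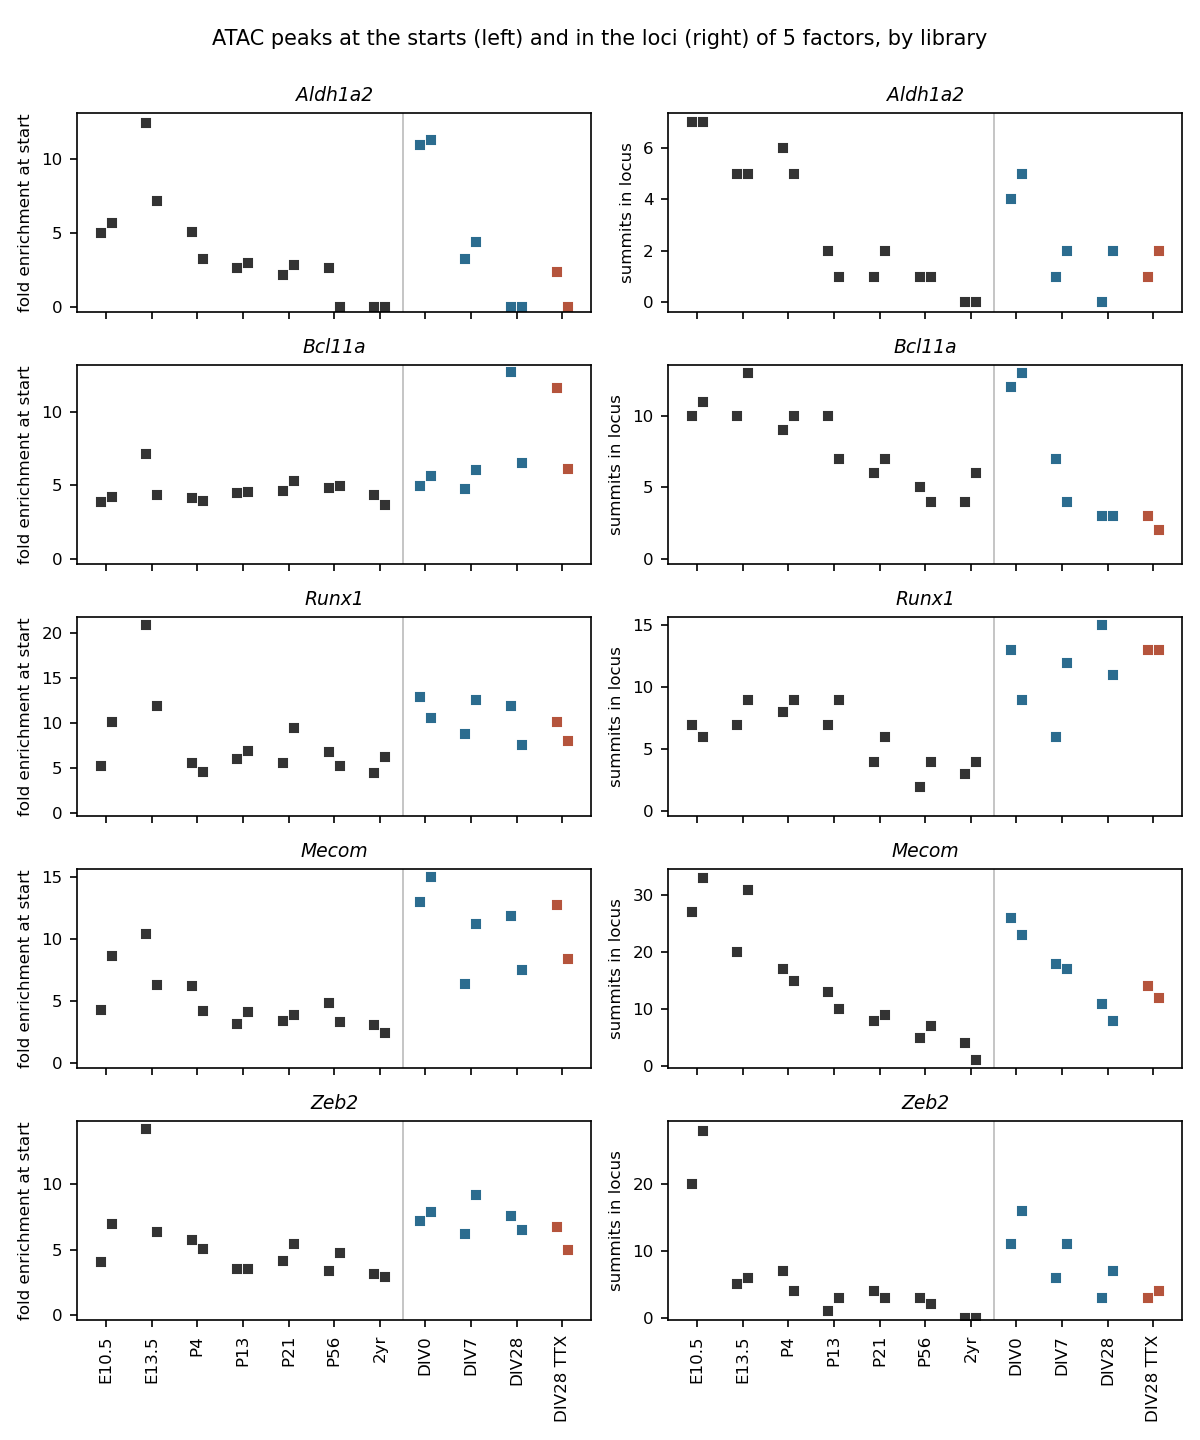
Left, highest fold enrichment of a peak within 1000 bases of an annotated start, and right, number of summits in the gene and 20000 bases either side among the 75000 highest of the library, for 5 factors in each of the 22 ATAC libraries. Squares are libraries, with tissue in black, culture in blue and TTX in red. *Aldh1a2* has no start peak at 2 years or DIV28, and *Runx1* has 11 to 15 summits at DIV28 and with TTX against 2 to 6 from P21 to 2 years. The highest *Bcl11a* start peaks at DIV28 (12.8 and 6.56) lie at the start of a noncoding transcript inside the gene.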

How the data were processed

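Spinal motor neurons and cultured motor neurons were measured by RNA-seq and ATAC-seq. Per the labels and the study's methods, the authors made stranded total RNA libraries, aligned them to mm10 with STAR 2.5.2b and deposited RSEM 1.3.0 expected counts and TPM per gene. The authors called ATAC peaks in each library with MACS2 2.2.7.1 and deposited each summit's fold enrichment and −log10 p and q values. Depth ranged from 2704682 to 21823500 expected counts per library, as deposited.

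Expected counts were rounded and fitted with edgeR 4.0.16 (R 4.3.3) by quasi-likelihood tests with TMM scaling, 1 coefficient per group, keeping genes that reached 5 CPM in all libraries of some group. Tissue (18 libraries, 15030 genes), culture (10 libraries, 12890 genes) and both without TTX (25 libraries, 15521 genes) were fitted apart. Calls needed an unadjusted p under 0.001 and 2-fold, the study's limits, and adjusted p-values are Benjamini-Hochberg over all genes of a fit. Errors are standard errors, the absolute log2 fold change over the square root of F. DESeq2 1.42.0 was an alternative. The test was checked on simulated data.

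The members and lists were chosen with earlier results of these data known. The genes named were all 10 members, the 3 most alike to each by Pearson's r over 11 group means, the 2 highest and 2 lowest called genes of a list, and genes behind counts of 5 or fewer. Some genes that this rule names are not reported here. Cultures with and without TTX that share a number were grown in parallel per the study's supplement. Their deviations correlated at 0.582, 0.505 and 0.665 over 12890 genes. Replicates pool animals or are cultures of 1 line. By chi-square, all replicates differed by more than sampling noise. Starts follow GENCODE vM21 (GRCm38), and promoters are from RefSeq, which held 7 of the 10 members.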

Additional observations from a re-analysis of the deposited data

Results flagged for a closer look

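For 4 factors the change over maturation differed between culture and tissue by a test of the difference itself, edgeR's interaction of DIV0 to DIV28 minus E13.5 to P21, as log2. The difference was 2.634 for *Foxp1*, 3.766 for *Pou3f1*, 2.459 for *Runx1* and -5.869 for *Bcl11a*. With the library titled DIV0 replicate 3 counted as DIV0, only that of *Foxp1* was made. No cause was tested.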

How the results depend on the processing

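Of 650 values of single factors under another setting, 533 kept their direction and their side of the limits, 81 were no longer called, 29 became called and 7 reversed, and of 178 counts 144 stayed within 1.5 times. Without the filter on low counts, the number of factors called was 1 from P13 to P21, 5 from DIV0 to DIV7, 6 from DIV7 to DIV28, 6 from DIV0 to DIV28 and 4 with TTX. With the libraries of the compared groups alone it was 3 from E10.5 to E13.5, 5 from DIV0 to DIV7 and 2 from DIV7 to DIV28. With an adjusted p under 0.05 it was 2 from DIV7 to DIV28 and 6 from DIV0 to DIV28. With the library titled DIV0 replicate 3 counted as DIV0 it was 1 from DIV0 to DIV7, 0 from DIV0 to DIV28, 3 from P21 to DIV28 and 1 for the interaction. Without the DIV28 and TTX libraries numbered 2, a setting chosen after seeing the data, it was 4 from DIV7 to DIV28. The causes were not tested. Median-of-ratios scaling moved the all-gene median log2 change from E10.5 to E13.5 from 0.13 to 0.24 and from E13.5 to P4 from 0.12 to 0.013, and turned no factor's direction.

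With the replicate block the number called was 3 from E10.5 to E13.5, 2 from DIV7 to DIV28 and 1 with TTX, *Runx1*. Only the DIV28 and TTX numbers pair cultures. Other same-numbered libraries share a number alone, with correlations of -0.128 to 0.151.

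Leaving out 1 library gave 2 to 4 calls from E10.5 to E13.5, 1 to 4 from P4 to P13, 0 to 1 from DIV0 to DIV7, 0 to 2 from DIV7 to DIV28, 1 to 4 from DIV0 to DIV28 and 3 to 4 from E13.5 to DIV0. A group left with 1 library is assumed to vary like the others.

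With P4 in place of E13.5, the log2 change from E10.5 reversed for *Foxp2* (-0.774) and *Zeb2* (-0.818), and with P13 for *Foxp2* (-1.432), *Etv4* (-1.755), *Mecom* (-2.013) and *Zeb2* (-0.979). With E10.5 in place of E13.5, *Runx1* changed by 3.995 to P21. *Aldh1a2*, not called from E10.5 to E13.5 (0.21), changed by -2.13 to P4 and -4.13 to P13. These replace the age itself. Among the 40000 highest peaks of each library the 10 loci held 772 summits, against 1852 among 75000, because fewer peaks enter.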

Other observations

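Genes with a course like a factor's were ranked by Pearson's r of log2(normalized count + 1) over the 11 group means, as a description over 17148 genes. The 3 most like *Aldh1a2* were *Spon1* (0.988), *Trib2* (0.973) and *Ncaph* (0.9699), and those most like *Zeb2* were *Peli1* (0.975), *Prkd3* (0.973) and *Knl1* (0.967). For *Foxp1* they were *Plekhg2*, *Fbln1* and *Lrp10* (0.964 to 0.969), and for *Foxp2* *Kif20b*, *Aldh1a2* and *Spon1* (0.9415 to 0.9456). For *Pou3f1* they were *Pdpn*, *Sdc1* and *Agpat4* (0.979 to 0.981), for *Etv1* *Erbb4*, *Gucy1a1* and *Mab21l2* (0.956 to 0.957), and for *Etv4* *Thbs1*, *Actn1* and *Mmp2* (0.946 to 0.964). For *Bcl11a* they were *Grk5*, *Pot1b* and *Dlk1* (0.962 to 0.968), and for *Runx1* *Pcdha2*, *Gm39469* and *Gm48957* (0.947 to 0.952). Among the factors themselves *Aldh1a2* and *Zeb2* were most alike (0.954) and *Pou3f1* and *Etv1* least (-0.685). The points share libraries and the same 11 groups.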
